A study of Mus musculus with 14 samples.

Results

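The inhibitory interneuron marker genes described here were a list of 10 genes chosen by name: Gad1, Gad2, Slc32a1, Lhx6, Sst, Pvalb, Erbb4, Vip, Cck and Reln. All 10 were found among the 24421 genes of the deposited count table, and 9 of them had enough reads for the test of genotype, which covered 14897 genes. RNA was sequenced from the hippocampus of 14 naive male mice (strain label 129.C57Bl6; the methods give a mixed C57BL/6 and 129/SvJ background for the controls), 7 of them labelled LPAR2-/- and 7 labelled wildtype (WT). LPAR2 is a receptor for lysophosphatidic acid, and the knockout allele lacks the second part of its exon 2. Knockouts and controls were bred as separate colonies, so that the groups were not littermates and colony and genotype cannot be told apart. Both genotypes are labelled as 10 to 12 weeks old, whereas the series is described as middle-aged to aged, so the age of these mice is uncertain. The study's text also speaks of the dentate gyrus where the labels give the hippocampus.

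Inhibitory interneurons are the local neurons that release GABA, the main inhibitory transmitter of the adult brain. GABA is made from glutamate by glutamate decarboxylases and loaded into synaptic vesicles by a vesicular transporter. In the hippocampus these cells fall into classes that are told apart by their origin in the embryonic ganglionic eminences and by peptides or calcium-binding proteins, and they control when and how strongly pyramidal and granule cells fire. In RNA of whole tissue, fewer cells of a class and less RNA per cell cannot be told apart.

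The libraries held from 15434620 to 23258949 counted reads per mouse. Lpar2 had 144 to 234 counts in the mice labelled LPAR2-/- and 27 to 66 in the WT mice, higher in the knockout. Most counted bases of Lpar2 lie in the last exon, outside the deleted part, so this count checks neither genotype nor labels. Of 16 marker lists of other cells and regions, none differed between genotypes after adjustment. The striatal list (difference 0.20 in mean log2 CPM, adjusted p = 0.364) and the meningeal list (0.69, adjusted p = 0.364) had the lowest exact two-sided permutation p, 0.0379 and 0.0455. The summed level of the meningeal list was 78.2 to 306 CPM in LPAR2-/- and 63.9 to 237 CPM in WT mice, and 1 of its 5 genes, Lum, passed the edgeR test. Their part in the results below was not tested.

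The 3 peptide genes Sst, Vip and Cck are shown by their promoters because cyclic AMP responsive genes of this kind carry the letters TGACGTCA, or its shorter part TGACG, near the start. The sequences run 5′ to 3′ over 300 bases from RefSeq (GRCm38.p6, the mm10 assembly), from 250 bases before the start of the gene to 50 after it, with the matched letters in capitals. They lie at chr16:23890795-23891094 on the minus strand for Sst, chr10:5638968-5639267 on the plus strand for Vip and chr9:121495645-121495944 on the minus strand for Cck.
Sst: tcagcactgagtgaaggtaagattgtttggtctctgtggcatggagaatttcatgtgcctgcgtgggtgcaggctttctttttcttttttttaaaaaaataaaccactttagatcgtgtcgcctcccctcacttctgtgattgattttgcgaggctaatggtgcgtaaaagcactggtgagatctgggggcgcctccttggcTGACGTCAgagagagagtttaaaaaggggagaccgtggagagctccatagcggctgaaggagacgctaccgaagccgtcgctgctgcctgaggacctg
Vip: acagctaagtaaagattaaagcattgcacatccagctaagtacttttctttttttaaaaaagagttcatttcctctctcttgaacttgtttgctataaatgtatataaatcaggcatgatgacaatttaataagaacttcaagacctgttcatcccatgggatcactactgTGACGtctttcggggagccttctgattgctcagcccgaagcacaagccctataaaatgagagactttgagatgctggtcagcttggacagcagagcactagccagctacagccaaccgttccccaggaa
Cck: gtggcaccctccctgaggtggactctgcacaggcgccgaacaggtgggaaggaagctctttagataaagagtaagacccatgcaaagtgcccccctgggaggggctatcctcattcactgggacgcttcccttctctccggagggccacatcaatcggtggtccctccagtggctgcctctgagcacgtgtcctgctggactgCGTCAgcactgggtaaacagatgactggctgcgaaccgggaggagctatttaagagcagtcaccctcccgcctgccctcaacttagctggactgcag
All 10 genes matched a RefSeq promoter, with 13 promoters in all. TGACGTCA, searched on both strands, was found in 1 of the 13 (Sst, 48 bases before the start) and in 1.79% of all 32851 promoters of this length. TGACG, which also lies within TGACGTCA, was found on either strand in 4 of the 13 promoters (30.8%; Gad2, Sst, Vip and Cck) and in 20.8% of all promoters. In Vip it began 79 bases before the start, and in Cck the reverse letters CGTCA began 47 bases before it. A match describes these letters only.

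The first question was how strongly each marker was expressed. Levels between genes were compared in WT mice as CPM (counts scaled to library size) per kilobase of counted exon. Cck, which encodes the peptide cholecystokinin and is also made by pyramidal cells, stood highest at 133 ± 12.1 CPM per kilobase (SD, n = 7). Sst, encoding somatostatin, had 128 ± 25.8 and Gad1 122 ± 4.89, and the ranges of these neighbours overlapped. Gad2 had 20.4 ± 1.73, below Gad1 in 7 of 7 mice, and Slc32a1 had 13.3 ± 1.64, below Gad2 in 7 of 7. Pvalb followed at 12.2 ± 1.42, overlapping Slc32a1. Lhx6 (5.24 ± 0.489), Reln (4.71 ± 0.452) and Vip (4.67 ± 0.841) overlapped as neighbours, and Erbb4 was last at 0.107 ± 0.0374. The counted exons cover 42.3% of the GENCODE exon bases of Gad1 and 34.5% of those of Erbb4, against 95.7% for Gad2, so a level per length depends on the gene model used by the authors.

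The main question was whether these markers differed between genotypes. No difference was detected in any of the 9 tested markers: edgeR's quasi-likelihood test called 0 of 9 at an adjusted p under 0.05, and 0 had an unadjusted p under 0.05. Among all 14897 genes, 1009 (6.77%) were called, 494 higher and 515 lower in LPAR2-/- mice, and 3340 had an unadjusted p under 0.05. DESeq2 and limma also called 0 of the 9. The genotype ranges overlapped for every one of the 9 markers, and 1.77% of all genes had ranges that did not overlap. The log2 fold changes were positive in 4 and negative in 5 markers, with a median of -0.06 against 0.003 for all genes. The 95% intervals differed in width between markers, from -0.17 to 0.003 on the log2 scale for Gad1 to -0.48 to 0.28 for Sst, and changes within a marker's own interval are not excluded.

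**Figure D1:**
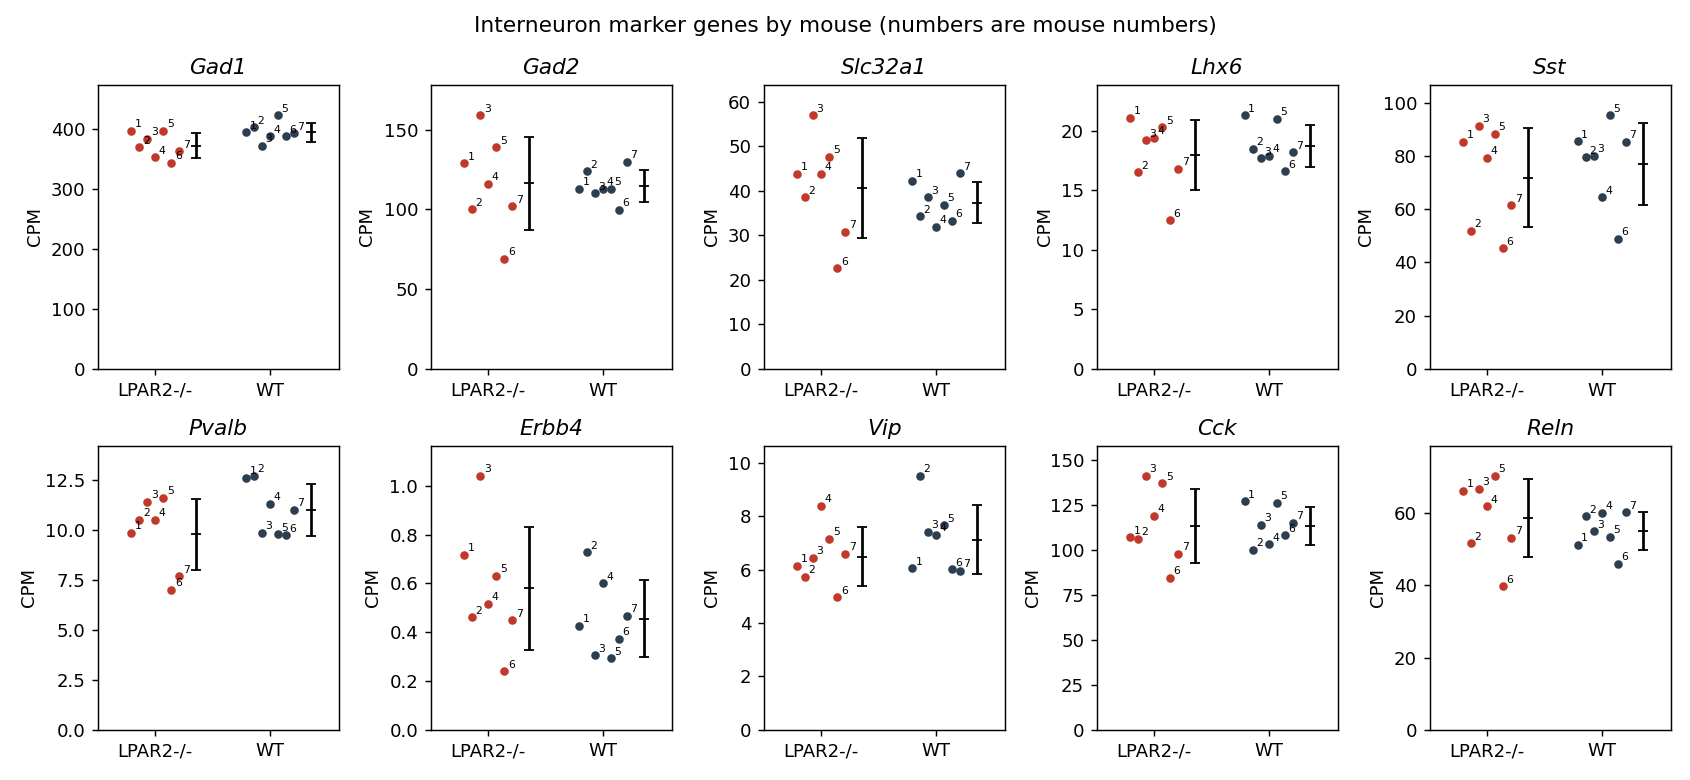
Expression of the 10 marker genes in CPM (linear axis from 0) for each mouse, with the mouse number beside its point and the mean ± SD of 7 mice beside each group. The points of both genotypes overlap in each panel, and LPAR2-/- mouse 6 is the lowest LPAR2-/- point in each.

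Genes of GABA synthesis and vesicular loading came first. Gad1 encodes GAD67, the decarboxylase that makes most of the cell's GABA, and lies at chr2:70562164-70602012 on the plus strand (mm10), where its 17 exons were counted. It had 344, 370 and 397 CPM (lowest, median and highest) in LPAR2-/- mice and 372, 393 and 423 CPM in WT mice. In LPAR2-/-, 4 mice were below the lowest WT mouse, and the others lay within the WT range. The log2 fold change was -0.08 (SE 0.041, 95% interval -0.17 to 0.003, adjusted p = 0.24, edgeR), and the unadjusted p of 0.0575 was the lowest of the 9 markers.

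Gad2 encodes GAD65, the synaptic decarboxylase (chr2:22622327-22693877, plus strand). It had 69.1, 116 and 159 CPM in LPAR2-/- mice and 99.9, 113 and 130 CPM in WT mice. The LPAR2-/- values thus reached both below and above the WT values (log2 fold change 0.02, SE 0.139, 95% interval -0.27 to 0.32, adjusted p = 0.946, edgeR). Slc32a1 encodes VGAT, the vesicular GABA transporter (chr2:158610758-158615747, plus strand). It had 22.6, 43.9 and 57 CPM in LPAR2-/- mice and 31.9, 36.9 and 44 CPM in WT mice. The same pattern of wider LPAR2-/- values held, and the log2 fold change was 0.13 (SE 0.159, 95% interval -0.21 to 0.47, adjusted p = 0.687, edgeR).

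Markers of cells from the medial ganglionic eminence followed. Lhx6, a transcription factor that these cells need for their specification (chr2:36081953-36105408, minus strand), had 12.5, 19.2 and 21.1 CPM in LPAR2-/- and 16.6, 18.2 and 21.3 CPM in WT mice. Apart from low LPAR2-/- animals the groups covered the same range, with a log2 fold change of -0.06 (95% interval -0.26 to 0.15, adjusted p = 0.776, edgeR). Sst (chr16:23889581-23890844, minus strand), whose promoter is printed above, had 45.3, 79.2 and 91.2 CPM in LPAR2-/- and 48.9, 79.9 and 95.2 CPM in WT mice. Its SD of log2 CPM among WT mice (0.324) was the largest of the 9 markers, and its log2 fold change was -0.10 (95% interval -0.48 to 0.28, adjusted p = 0.792, edgeR). Pvalb, the calcium-binding protein of fast-spiking basket cells (chr15:78191118-78206351, minus strand), had 6.99, 10.5 and 11.6 CPM in LPAR2-/- and 9.74, 11 and 12.7 CPM in WT mice. LPAR2-/- mice 6 and 7 were below all WT mice, and the log2 fold change was -0.16 (95% interval -0.40 to 0.07, adjusted p = 0.411, edgeR).

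Erbb4 encodes the neuregulin receptor of many interneurons (chr1:68039966-69108059, minus strand). With 4 to 24 counts per mouse it did not pass the filter on low counts and was not tested. Its levels were 0.239, 0.517 and 1.04 CPM in LPAR2-/- and 0.293, 0.425 and 0.728 CPM in WT mice, with overlapping ranges. Without the filter the log2 fold change was 0.36 (95% interval -0.26 to 0.98, adjusted p = 0.526, edgeR), which is too wide to bound a change.

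Among the markers of other classes, Vip encodes vasoactive intestinal peptide, found in interneurons that mostly inhibit other interneurons (chr10:5639218-5647614, plus strand). It had 4.96, 6.45 and 8.4 CPM in LPAR2-/- and 5.95, 7.3 and 9.51 CPM in WT mice, with a log2 fold change of -0.14 (95% interval -0.40 to 0.13, adjusted p = 0.559, edgeR). Cck (chr9:121489824-121495694, minus strand) had 84.6, 107 and 141 CPM in LPAR2-/- and 100, 114 and 127 CPM in WT mice. Its mean was 113 CPM in both genotypes (95% interval of the log2 fold change -0.21 to 0.22, adjusted p = 0.999, edgeR). Reln encodes the secreted protein reelin, made by a set of interneurons and by Cajal-Retzius cells (chr5:21884454-22344705, minus strand). It had 39.8, 61.9 and 70.3 CPM in LPAR2-/- and 46, 55 and 60.3 CPM in WT mice, with a log2 fold change of 0.09 (95% interval -0.14 to 0.32, adjusted p = 0.666, edgeR). In all 3 genes the LPAR2-/- and WT values overlapped.

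**Figure D2:**
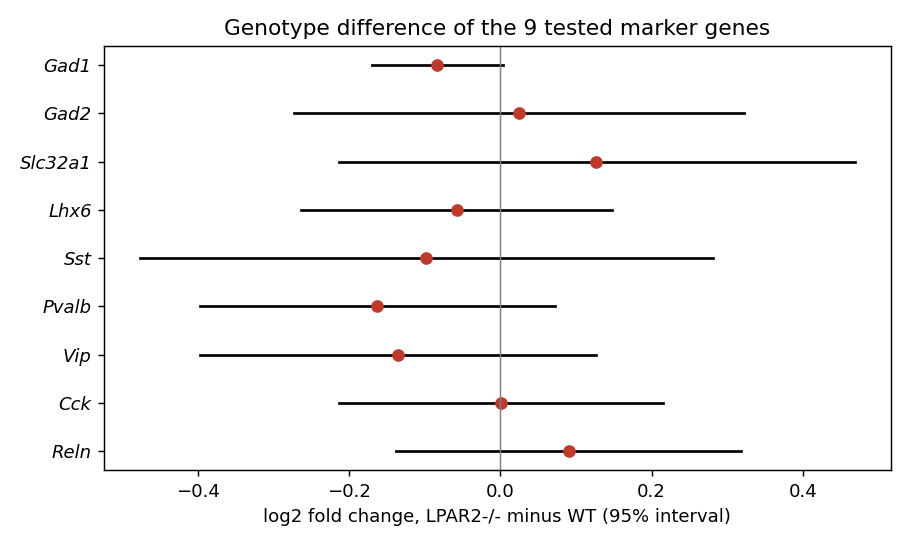
Log2 fold change (LPAR2-/- minus WT) of the 9 tested marker genes, as points, with 95% intervals from edgeR as lines. Each interval includes 0, and the narrowest is that of Gad1 (-0.17 to 0.003).

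While means were close, the markers varied more between LPAR2-/- mice than between WT mice. The ratio of the SD of log2 CPM, LPAR2-/- to WT, was above 1 in 8 of 9 markers, with a median of 1.97. The median over all tested genes was 1.09, and 57.2% of them had a ratio above 1. The ratio was highest for Gad2 (3.22) and Slc32a1 (2.52), lower for Gad1 (1.42) and below 1 for Vip (0.964). No test of this spread was run, and the genes are not independent, since the same 7 mice gave all values.

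The spread followed single mice across markers. LPAR2-/- mouse 6 was the lowest LPAR2-/- mouse for 9 of 9 tested markers and below every WT mouse for 9 of 9. LPAR2-/- mouse 7 was below the WT range for 4 markers, and LPAR2-/- mice 3 and 5 were above it for 4 markers each. Among WT mice, mouse 6 was the lowest for 5 of 9 markers. LPAR2-/- mice 6 and 7 also had the fewest counted reads of their genotype (16663752 and 15434620). Leaving out 1 LPAR2-/- mouse at a time gave median SD ratios from 1.28 to 2.12, the lowest without mouse 6, and between 8 and 9 markers above 1. Without mouse 6, the ratio of Gad2 was 2.14 and that of Slc32a1 1.7. The range of the oligodendrocyte list was also wider in LPAR2-/- mice (summed 842 to 3440 CPM) than in WT mice (1050 to 1790 CPM), with LPAR2-/- mouse 6 lowest and mouse 3 highest. The choroid plexus list was wider still (24.6 to 284 CPM against 28 to 33.1 CPM). Its highest value was that of LPAR2-/- mouse 2, without which its genotype difference went from 0.74 to 0.282 in mean log2 CPM. The CA3 list was lowest of all 14 mice in LPAR2-/- mice 6 and 7 (35.9 and 39.2 CPM), and the dentate granule cell list was highest in the same mice (842 and 833 CPM). Among WT mice the granule cell list was highest in WT mouse 6 (812 CPM). The part of these lists in the spread of the markers was not tested.

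**Figure D3:**
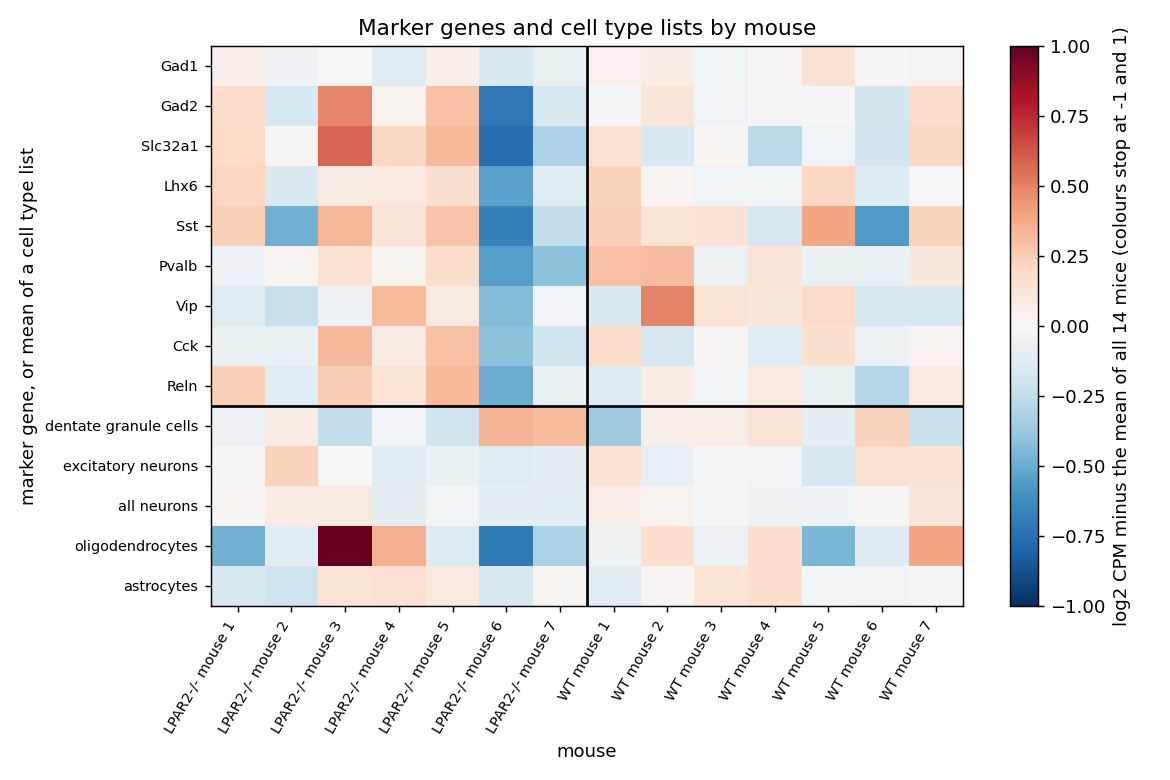
Log2 CPM minus the mean of the 14 mice for the 9 tested markers and for the mean of 5 cell type lists, 1 column per mouse. LPAR2-/- mouse 6 is low for 9 of 9 markers, whereas its granule cell list is high.

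The markers varied in the same direction when both genotypes were pooled, and not in every pair within WT mice. With genotype means removed, Pearson's r over the 14 mice was above 0 in 36 of 36 pairs of markers, from 0.23 (Gad1 and Vip) to 0.93 (Gad2 and Reln), with a median of 0.71. The pairs share the same libraries, and these values are given as a description. They include LPAR2-/- mouse 6, the lowest LPAR2-/- mouse for 9 of 9 markers, and no value without it is given. In 12 relations tested within a genotype, 7 mice each, 0 passed after adjustment in the exact permutation test. In LPAR2-/- mice 6 of 6 had a positive r (0.64 to 0.92), and in WT mice 4 of 6 (-0.46 to 0.76), with -0.46 for Vip and Cck, -0.01 for Gad1 and Slc32a1 and 0.23 for Gad1 and Gad2. Without the 2 farthest mice, 5 of 6 were positive in LPAR2-/- and 3 of 6 in WT mice. Pvalb with Lhx6 went from 0.79 to -0.04 in LPAR2-/- and from 0.34 to -0.11 in WT mice, and Sst with Pvalb from 0.26 to -0.42 in WT mice, so these relations rest on those mice. The difference between genotypes was not tested. The strongest was Sst with Lhx6 in LPAR2-/- mice (r = 0.92, exact permutation p = 0.00437, adjusted p = 0.0524; rho = 0.75, exact permutation p = 0.0663, adjusted p = 0.264), with r = 0.85 without the 2 mice farthest in Sst. The genes whose pattern was most like the mean of Gad1, Gad2 and Slc32a1 were Scrn1 (r = 0.96), Cnr1 (r = 0.96), Dlc1 (r = 0.95), Gm5607 (r = 0.95) and Kif5a (r = 0.94) over 14 mice with genotype means removed. Cnr1 encodes the cannabinoid receptor CB1, which CCK basket cells carry, and Kif5a a neuronal transport motor.

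The markers were also set against the lists of other cells, and no relation passed after adjustment. The granule cell list (Prox1, Dsp, C1ql2, Lct, Tdo2 and Trpc6) had a negative r with 9 of 9 markers in LPAR2-/- mice (median -0.89) and with 8 of 9 in WT mice (median -0.49). For Slc32a1 in LPAR2-/- mice, r was -0.95 (exact permutation p = 0.000397, adjusted p = 0.0857; rho = -0.96, exact permutation p = 0.00278, adjusted p = 0.133) and -0.94 without the 2 farthest mice. For Gad2 in LPAR2-/- mice, r was -0.91 (exact permutation p = 0.000595, adjusted p = 0.0857; rho = -0.96, exact permutation p = 0.00278, adjusted p = 0.133) and -0.97 without the 2 farthest mice. These p-values were adjusted over 288 relations (16 marker lists, 9 markers and both genotypes), chosen after seeing the data, and 0 passed. In WT mice r was -0.87 for Slc32a1 (adjusted p = 0.197; rho = -0.89, adjusted p = 0.221) and -0.49 for Gad2 (adjusted p = 0.593; rho = -0.29, adjusted p = 0.77) in the exact permutation test, and r was -0.63 and -0.54 without the 2 farthest mice. In LPAR2-/- mice 8 of the 16 lists had a positive r with 9 of 9 markers, namely those of striatal neurons, thalamus, cortex, CA3 pyramidal cells, astrocytes, oligodendrocytes, endothelium and blood, and in WT mice 0 of 16 did. The cortex list had the highest of these values in LPAR2-/- mice (0.67 to 0.93, lowest adjusted p = 0.0952 in the exact permutation test). In WT mice 2 of 16 lists, thalamus and choroid plexus, had a negative r with 9 of 9 markers. Without the 2 farthest mice, 4 of these 8 lists (thalamus, cortex, endothelium and blood) still had a positive r with 9 of 9 markers in LPAR2-/- mice. The others of the 8 then had it with 8 (striatal neurons), 7 (astrocytes), 5 (oligodendrocytes) and 5 (CA3) of the 9, and the median of the CA3 list went from 0.73 to 0.27, so those relations rest in part on those mice. The excitatory neuron list went from 7 to 9 of 9 in LPAR2-/- mice. In WT mice 1 list, cortex, then had a positive r with 9 of 9 markers (median 0.68, against 0.64 in LPAR2-/- mice). The blood list is 1 tested gene of 3, and all 3 summed to 1.02 to 3.14 CPM in LPAR2-/- mice. The difference between genotypes in these relations was not tested. The granule cell list itself was 541 to 842 CPM in LPAR2-/- and 537 to 812 CPM in WT mice when summed, and Prox1 is also expressed by some interneurons. Of its 6 genes, 1 (Tdo2) was itself higher in LPAR2-/- mice (log2 fold change 0.45, SE 0.109, adjusted p = 0.0244, edgeR), so the list carries part of the genotype difference. With the list as a covariate, 0 of 9 markers were called by edgeR.

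**Figure D4:**
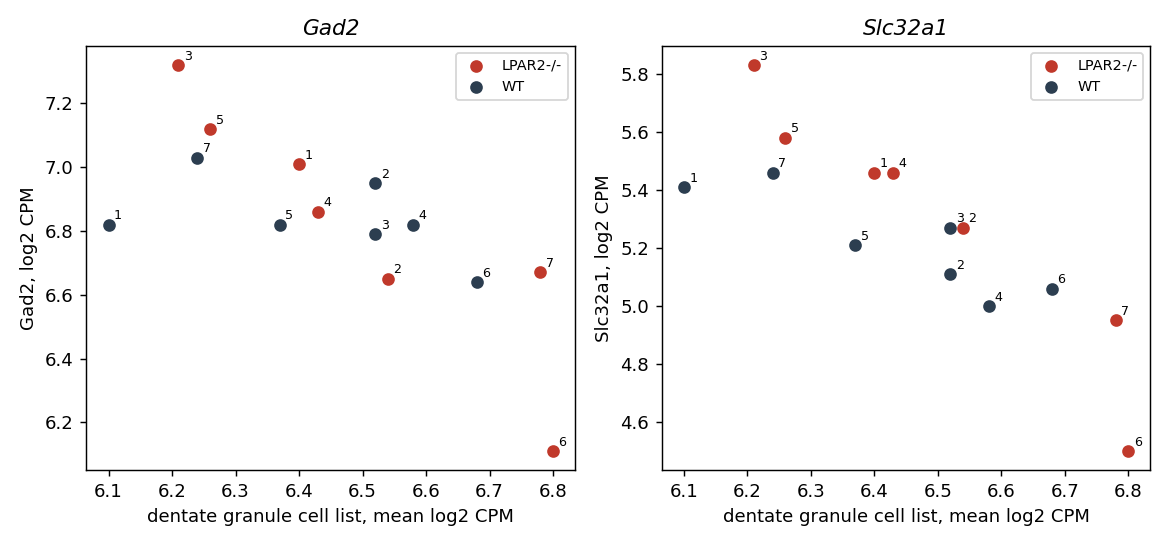
Log2 CPM of Gad2 (left) and Slc32a1 (right) against the mean log2 CPM of the dentate granule cell list, 1 point per mouse with its number. Slc32a1 has a negative r with the list in LPAR2-/- mice (-0.95) and in WT mice (-0.87), neither past the threshold after adjustment over 288 relations.

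A final comparison placed the markers beside 4 lists of related genes, 76 genes in all of which 72 were tested. Of these, 3 (4.17%, against 6.77% of all genes) were called by edgeR: Id2 and Rab3b were lower and Nrg1 was higher in LPAR2-/- mice. In the same test 15 of the 72 had an unadjusted p under 0.05, beside 3340 of all 14897 genes. Genes for the handling of GABA (14 tested, 7 higher and 7 lower, median log2 fold change 0.00) had 0 called by edgeR, with 2 at an unadjusted p under 0.05. The GABA transporter gene Slc6a12 had the largest value (log2 fold change 0.80, SE 0.468, adjusted p = 0.335, edgeR). Its level was low, with a mean of 2.84 CPM in LPAR2-/- and 1.62 CPM in WT mice. Slc6a13 came next (0.67, adjusted p = 0.428, edgeR). Whether cells other than interneurons gave these values was not tested. Interneuron transcription factors (14 tested of 15, median -0.01) had 0 called by edgeR and 3 at an unadjusted p under 0.05, with the largest value for Sp8 (0.54, SE 0.356, adjusted p = 0.391, edgeR).

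Other interneuron subtype markers (26 tested of 27, median -0.09) had 2 called (7.69%, near the 6.77% of all genes), both lower. Of the 26, 8 had a positive and 18 a negative log2 fold change, where 51.1% of all tested genes had a positive one. An unadjusted p under 0.05 in edgeR was found for 8 of the 26 and for 3340 of all 14897 genes. Id2 encodes an inhibitor of helix-loop-helix factors and marks neurogliaform interneurons, though other cells of the hippocampus express it too (chr12:25093799-25096092, minus strand). It had 58.7, 63.9 and 75 CPM in LPAR2-/- and 67.1, 79.1 and 82.1 CPM in WT mice. The ranges overlapped, and the log2 fold change was -0.24 (SE 0.0557, adjusted p = 0.0176, edgeR). Lamp5 (0.23, adjusted p = 0.182, edgeR) and Ndnf (0.14, adjusted p = 0.4, edgeR), other markers used for neurogliaform cells, had positive log2 fold changes. Id2 alone thus says little about these cells. Rab3b encodes a small GTPase of synaptic vesicles (chr4:108879070-108943324, plus strand). Its LPAR2-/- values ran from 10.5 to 22.2 CPM and its WT values from 23 to 32.1 CPM, so that all 7 LPAR2-/- mice were below all 7 WT mice (1.77% of all genes had ranges that did not overlap). The log2 fold change was -0.66 (SE 0.147, adjusted p = 0.0165, edgeR). Both were called in 22 of 22 alternative settings.

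Receptors and partners of the markers (18 tested of 20, median 0.02) had 1 called (5.56%) and 2 at an unadjusted p under 0.05. Nrg1, the neuregulin that binds ErbB4 (chr8:31818028-31918203, minus strand), had 0.576 to 1.85 CPM in LPAR2-/- and 0.5 to 1.11 CPM in WT mice, with 9 to 43 counts per mouse. Its log2 fold change was 0.88 (SE 0.233, adjusted p = 0.0321, edgeR), higher in LPAR2-/-. The ranges overlapped, and the call was lost in 7 of 14 fits that left out 1 mouse, with adjusted p up to 0.0693. It was also lost in an edgeR fit with mouse number as a block (adjusted p = 0.104) and in limma (adjusted p = 0.0604). The counted exons cover 20.3% of its GENCODE exon bases.

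**Figure D5:**
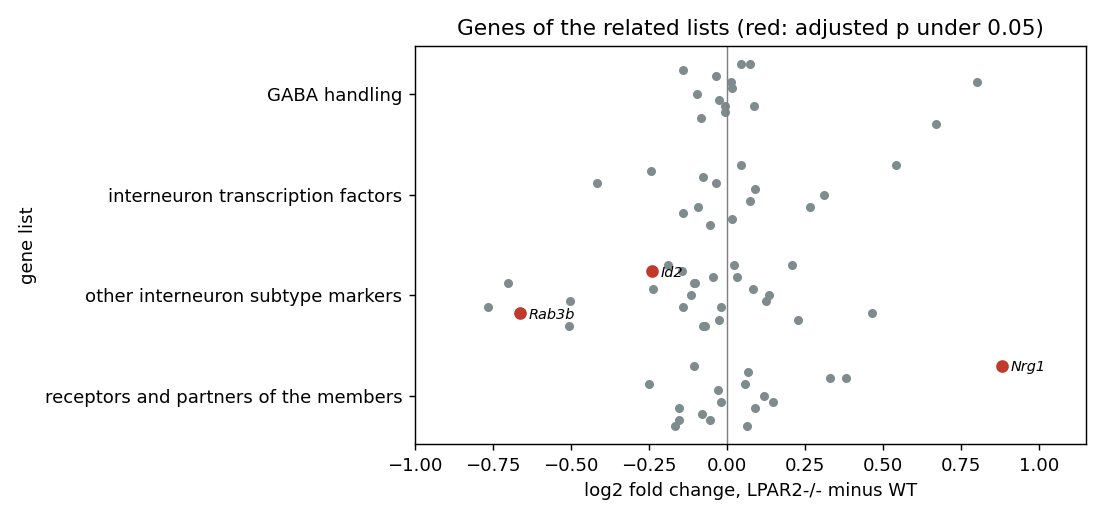
Log2 fold change (LPAR2-/- minus WT) of the 72 tested genes of 4 related lists, 1 point per gene, with vertical offsets only to separate points. The 3 genes with an adjusted p under 0.05 are red: Id2 (-0.24), Rab3b (-0.66) and Nrg1 (0.88).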

How the data were processed

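Per the labels and the study's methods, hippocampal RNA was prepared with an Illumina TruSeq kit (the study's methods add removal of ribosomal RNA). Adapters were removed by the authors (cutadapt 1.18), STAR was used for alignment to mm10, and featureCounts 1.6.3 summed exon reads per gene in its reverse-strand setting. The deposited counts are whole reads per gene and were used as deposited, with the deposited gene length in bases for levels per kilobase. A deposited table of normalized values was not used.

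Genes that passed edgeR's filterByExpr were normalized by TMM and compared in edgeR 4.0.16 (R 4.3.3) by its quasi-likelihood test with robust settings, 7 mice against 7, without covariates, with Benjamini-Hochberg adjustment over all 14897 tested genes and a threshold of 0.05. Log2 CPM used a prior count of 2. Relations and marker lists were tested by exact two-sided permutation (5040 orders of 7 mice, 3432 arrangements of 7 against 7, smallest p 0.000583). The p-values rest on separately labelled mice. Libraries of 1 genotype differed beyond sampling noise in all 42 pairs (chi-square per degree of freedom at least 3.29). Alternatives used DESeq2 1.42.0 and limma 3.58.1 on log2 normalized counts plus 1. Genes were named if they were markers, passed the threshold in a related list (else the largest change in it), or were among the 5 most alike in pattern. Members and lists were chosen with earlier results of these data known. The edgeR script was tested on simulated data. Coverage of counted exons was taken from GENCODE. A result of an alternative test for a gene of the related lists is not reported here.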

Additional observations from a re-analysis of the deposited data

Results flagged for a closer look

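Among 24 groups of 7 mice checked (9 markers and 3 called related genes in each genotype), 1 held a mouse far from the others. Id2 in WT mouse 1 was 67.1 CPM, with a gap to the next WT mouse of 0.575 of the WT range, above Dixon's critical value for 7 values at the 95% level. Chance puts about 5% of such groups past this limit. Id2 stayed called by edgeR when any 1 mouse was left out, with adjusted p up to 0.0417. No marker was past the limit in either genotype.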

How the results depend on the processing

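No marker was called in any of 22 alternatives, 21 of them planned and 1 (the granule cell list as a covariate) added after seeing the data. The sign of small fold changes did vary. Gad2 was negative in the fit with a replicate block of mouse numbers (-0.0114) and with limma (-0.0186), Cck was negative with DESeq2 (-0.00218), the replicate block (-0.0132) and limma (-0.0181). Leaving out 1 mouse gave -0.0674 to 0.118 for Gad2, -0.101 to 0.0116 for Lhx6 and -0.0591 to 0.0598 for Cck. The other markers kept their sign but also moved, such as 0.0264 to 0.229 for Slc32a1 and -0.182 to -0.0134 for Sst. Vip ran from -0.208 to -0.0511, Reln from 0.0445 to 0.164, Pvalb from -0.204 to -0.0982 and Gad1 from -0.0997 to -0.0655. The cause was not tested. Called genes over the whole table numbered 586 with the replicate block, 1759 with the granule cell covariate and 567 to 1385 when 1 mouse was left out, against 1009. Same-numbered mice correlated from -0.33 to 0.31, above 0.1 in 3 of 7 pairs. These correlations cannot show whether mice of the same number shared a batch, which was not tested. Mice 6 and 7 had the fewest counted reads in LPAR2-/- (16663752 and 15434620) and in WT mice (16373410 and 17412871). With the upper quartile, 62% of calls were higher. Nrg1 was not called with the replicate block (adjusted p = 0.104) or limma (0.0604). Without the 2 farthest mice, r moved to 0.57 for Gad1 and Gad2 and 0.23 for Gad1 and Slc32a1 in WT mice, -0.42 for Sst and Pvalb, -0.11 for Pvalb and Lhx6 and -0.02 for Vip and Cck in WT mice, and 0.85 for Sst and Lhx6 and -0.04 for Pvalb and Lhx6 in LPAR2-/- mice. In a narrower family of 18 granule cell, oligodendrocyte and excitatory neuron relations, picked after their values had been seen, 2 had passed (adjusted p = 0.00536), and over all 288 relations 0 did. Leaving out 1 mouse turned the sign of the differences of 3 marker lists (none past the threshold): -0.236 to 0.107 for oligodendrocytes, -0.0855 to 0.0317 for thalamus and -0.269 to 0.0161 for CA1 pyramidal cells. Counts limit Erbb4 (4 to 24 reads per mouse) most.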
